A study of Mus musculus with 8 samples.

Results

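Histone genes were followed in pancreatic islets of wild type mice and of mice labelled Tcf1 knock-out. The members were the probe sets (groups of short oligonucleotides that report 1 transcript or family) on the Affymetrix mouse arrays MG-U74A and MG-U74B whose annotated symbols, old or current, all name a histone gene of the linker, core or replacement type. Members were chosen by symbol alone, with no measured value in the rule, and came to 43 of 24965 probe sets, 32 of them on MG-U74A and 11 on MG-U74B. They name 57 genes. Of the 43 probe sets, 35 carried 1 symbol and 8 carried several. Within a core family such as H3, the coding sequences of the replication-dependent genes are much alike. The family was put forward with knock-out against wild type results of these arrays known, so its counts describe the members and are no independent evidence.

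Total RNA of islets was measured in 2 groups, wild type and Tcf1 knock-out, on 2 array types, with 2 replicates per genotype and type that the labels call biological (8 arrays). The labels give no strain, age, sex, allele or treatment, and do not say whether mice were pooled or whether the gene was lost in the whole animal. Genotypes rest on the labels, since the targeted transcript itself is not analysed here. The sample titles do not say whether arrays of the 2 types with the same replicate number read the same RNA. A result seen on both types may therefore not be an independent repeat. Nothing says that replicates came from separate animals. The p-values therefore reflect only how far these arrays differ, possibly for technical reasons, and the number of arrays limits the precision.

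Histones package DNA. Core histones H2A, H2B, H3 and H4 form the nucleosome, around which DNA is wound, and linker histone H1 binds where the DNA enters and leaves it. The replication-dependent genes lie in clusters and are transcribed mainly in S phase. Their mRNA usually ends in a stem-loop in place of a poly(A) tail, though not for every gene and cell state. Which end the mRNAs read here had was not measured. Replacement histones such as H2A.Z and macroH2A mostly come from genes that lie singly and have polyadenylated mRNA. Most are made throughout the cell cycle and are placed at particular sites of the chromatin. Standard array labelling starts from the poly(A) tail, so an mRNA without one is labelled poorly. Adult islet cells divide rarely.

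Of the 57 member genes, 49 had a promoter in a RefSeq table of the mouse build GRCm38.p6, 50 promoters in all, and 30 of the 49 lay on chromosome 13 and 8 on chromosome 3. The 250 bases before the start site are printed below for genes of the 4 probe sets of H2B, H1 and H2A that fell most in knock-out (H2bc8, H2bc6, H2bc1, H1f2 and H2ac18) and for H2az1, the replacement gene that rose. They are written 5′ to 3′ along the gene's strand, and capitals mark matches on either strand to the CCAAT box (CCAAT), the TATA box (TATAAA or TATATA), the octamer (ATTTGCAT), the H1 box (AAACACAA) and the E2F site (TTTCGCGC or TTTGGCGC). For H2bc6 the second of its 2 start sites is shown, as an example with an octamer. The window of the other holds 3 CCAAT boxes, 0 octamers and 0 TATA boxes. H2bc4, which shares a probe set with H2bc8 and H2bc6, is not shown.
H2bc8 (chr13:23571150-23571399, plus strand): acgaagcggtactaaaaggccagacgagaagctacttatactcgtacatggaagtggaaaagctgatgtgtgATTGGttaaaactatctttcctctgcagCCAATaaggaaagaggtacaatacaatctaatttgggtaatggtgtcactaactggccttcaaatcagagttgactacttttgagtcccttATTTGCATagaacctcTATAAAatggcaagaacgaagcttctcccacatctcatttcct
H2bc6 (chr13:23585971-23586220, minus strand): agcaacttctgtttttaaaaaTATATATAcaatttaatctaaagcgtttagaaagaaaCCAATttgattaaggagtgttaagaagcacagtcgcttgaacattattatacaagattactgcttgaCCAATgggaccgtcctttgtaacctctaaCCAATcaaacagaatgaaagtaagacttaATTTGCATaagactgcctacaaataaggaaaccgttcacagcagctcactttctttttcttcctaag
H2bc1 (chr13:23934157-23934406, minus strand): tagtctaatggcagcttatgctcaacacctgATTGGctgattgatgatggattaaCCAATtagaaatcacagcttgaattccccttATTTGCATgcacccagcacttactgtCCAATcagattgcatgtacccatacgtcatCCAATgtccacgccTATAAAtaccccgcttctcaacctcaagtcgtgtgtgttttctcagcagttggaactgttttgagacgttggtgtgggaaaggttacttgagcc
H1f2 (chr13:23738557-23738806, plus strand): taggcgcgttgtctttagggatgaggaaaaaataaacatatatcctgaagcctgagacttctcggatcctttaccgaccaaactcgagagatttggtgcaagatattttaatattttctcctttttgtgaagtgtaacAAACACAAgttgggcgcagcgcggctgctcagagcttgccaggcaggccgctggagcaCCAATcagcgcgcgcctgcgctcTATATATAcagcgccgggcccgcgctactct
H2ac18 (chr3:96245247-96245496, plus strand): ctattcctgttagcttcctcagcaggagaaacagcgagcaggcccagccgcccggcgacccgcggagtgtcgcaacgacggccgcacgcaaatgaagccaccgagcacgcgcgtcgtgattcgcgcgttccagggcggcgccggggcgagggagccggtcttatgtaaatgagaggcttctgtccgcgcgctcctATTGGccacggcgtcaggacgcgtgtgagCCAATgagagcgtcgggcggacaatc
H2az1 (chr3:137864237-137864486, plus strand): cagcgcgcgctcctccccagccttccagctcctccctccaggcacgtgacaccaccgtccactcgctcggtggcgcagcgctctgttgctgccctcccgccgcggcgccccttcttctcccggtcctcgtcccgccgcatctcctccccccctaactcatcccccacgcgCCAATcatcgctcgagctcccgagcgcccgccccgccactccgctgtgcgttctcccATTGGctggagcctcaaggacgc

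The octamer is a known element of H2B promoters that binds the factor Oct-1, and the H1 box is a known element of H1 promoters. The 3 H2B promoters shown hold 1 octamer each, ending 51 bases before the start in H2bc8, 59 in H2bc6 and 156 in H2bc1. The start site of H2bc6 was picked for its octamer, so these examples are no count. H1f2 holds an H1 box that ends 104 bases before the start, a CCAAT box and a TATA box in that order. In the promoter of H2ac18 the window holds CCAAT boxes with no octamer or TATA box, and the same is true of H2az1. Over all members, 5 of 8 promoters of replication-dependent H2B genes held an octamer (62.5%), against 1.6% of the 32851 promoters in the table. These 8 promoters belong to 7 of the 10 H2B genes, and H2bc6 is counted at both of its start sites. The H1 box was found in 4 of 9 H1 promoters (44.4%), against 1.67% of all. CCAAT boxes occurred in 34 of 50 member promoters (68.0%, against 33.8% of all) and TATA boxes in 24 (48.0%, against 15.6%), with 0 TATA boxes in the 7 promoters of replacement genes. The E2F site was found in 1 member promoter. A match is a match of letters, and no factor was measured at these sites.

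**Figure D1:**
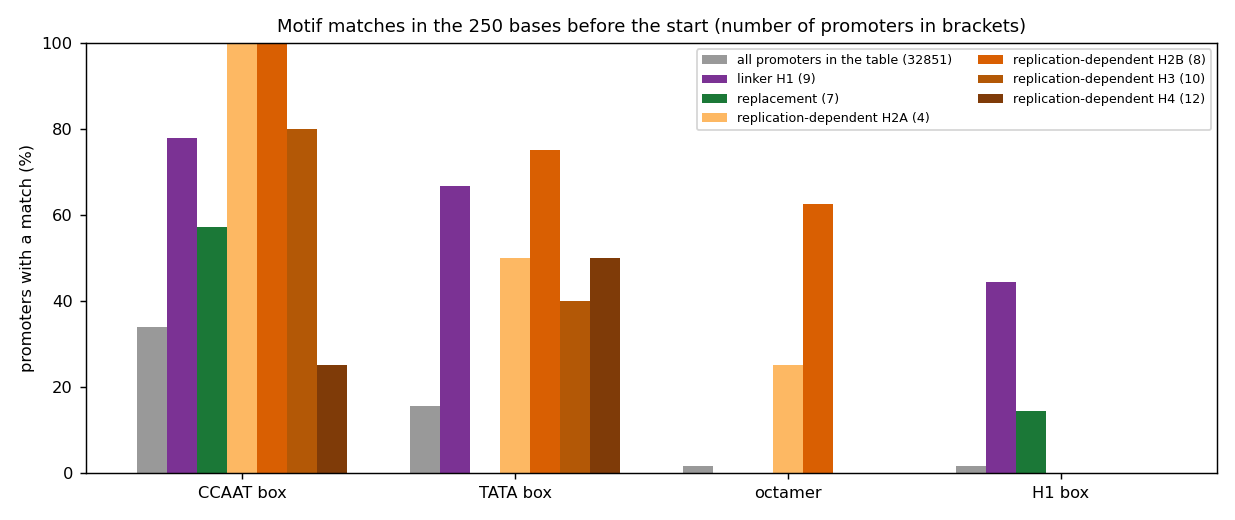
Share of promoters (y axis, %) with at least 1 match to each motif in the 250 bases before the start, for all promoters of the table and for member genes by family, with the number of promoters in brackets. The octamer stands out in H2B (62.5%) and the H1 box in linker genes (44.4%), while no TATA box was matched in these windows of the 7 replacement promoters.

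On MG-U74A the histone probe sets did not move together, and those of H3 split within the family. Transcripts read as H2B, as the H2A genes H2ac18 and H2ac19, as H3c14 and as the linker H1f2 were 2.4-fold or more lower in knock-out islets, while both tested H3 probe sets with 12 symbols and that of H2az1 were higher. Of the 32 member probe sets, 14 had a mean over the 4 arrays of at least 62.5 intensity units and were tested, of which 8 fell and 3 rose (adjusted p under 0.05, limma with Benjamini-Hochberg adjustment over the array type). Over all 7516 tested probe sets of that array type 29% fell and 23.9% rose, so much of the array changed. The median log2 change of the 14 was -0.46, against -0.09 over all tested. The genotypes did not overlap for 12 of the 14, against 79.1% of all tested probe sets. Without wild type replicate 2 the falls numbered 5, and over the array type they dropped from 2178 to 1082. On MG-U74B 7 of 11 members were tested, and limma called none of them in either direction, where 8.59% of 7861 probe sets rose and 8.87% fell. At an unadjusted p under 0.05 there was 1 of the 7, that of the H4 family, against 35% of all tested there, and on MG-U74A there were 11 of the 14, against 59.6%. Intensities of different probe sets are not comparable, so no level is set against that of another gene.

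**Figure D2:**
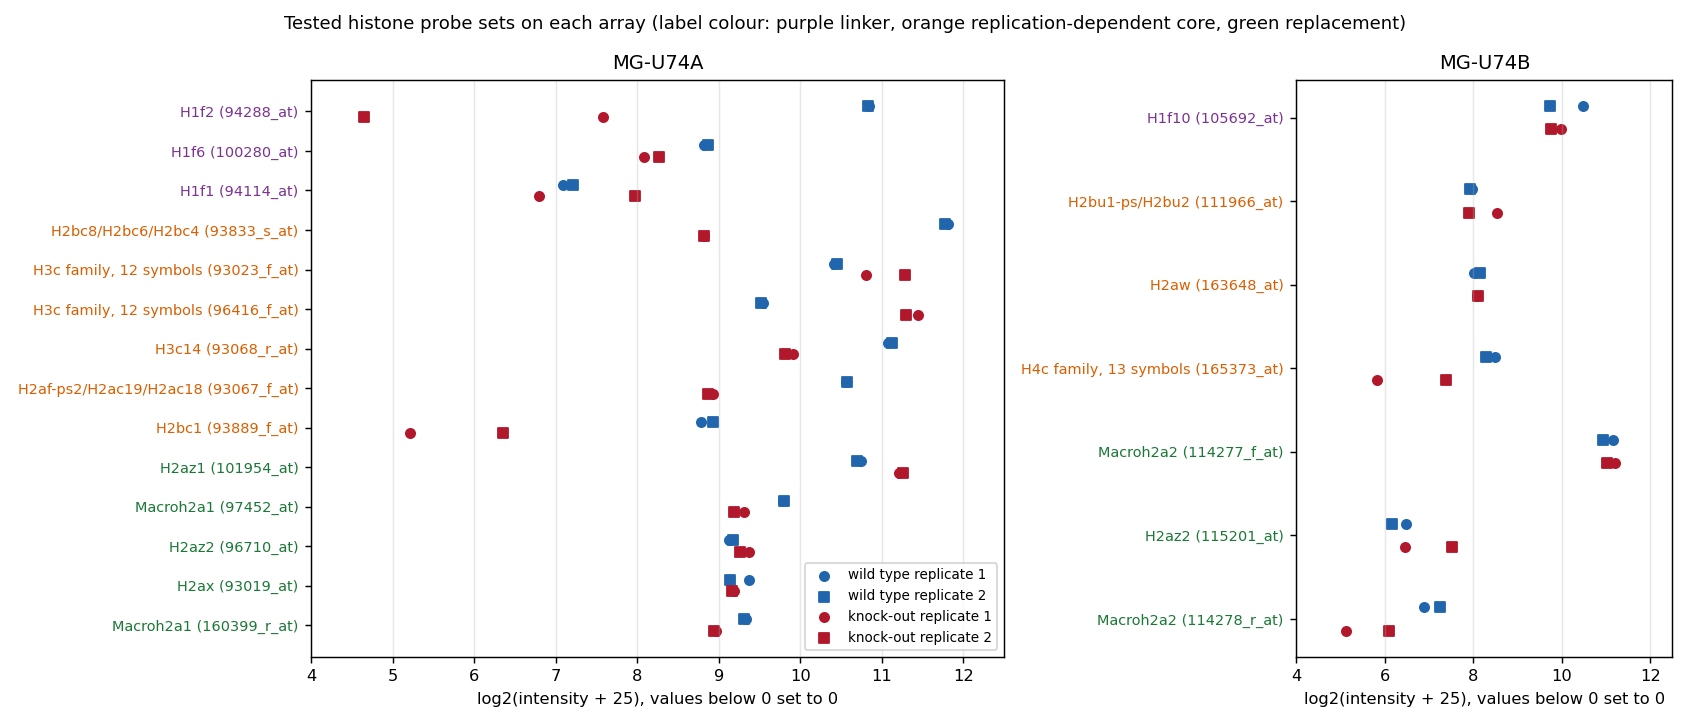
Every tested histone probe set (y axis) with its value on each array as log2(intensity + 25), wild type in blue and knock-out in red, circles for replicate 1 and squares for replicate 2. For the H2bc8/H2bc6/H2bc4 probe set the wild type arrays read 3560.4 and 3490.4 and the knock-out arrays 426.5 and 427.0.

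The clearest fall was in H2B, which pairs with H2A in the nucleosome. The probe set shared by H2bc8, H2bc6 and H2bc4 (93833_s_at) read 3560.4 and 3490.4 in wild type and 426.5 and 427.0 in knock-out. Both knock-out arrays were far below both wild type arrays, and the replicates lay close together. The means of 3525.4 ± 49.5 and 427 ± 0.364 (SD, n = 2) differ 8.26-fold, a log2 change of -2.97 ± 0.04 (SE, adjusted p = 9.39e-05). H2bc1, known as the H2B of male germ cells, has a probe set of the family kind (93889_f_at), which can read related sequences, as the suffix f states. It was 416.1 and 463.0 in wild type and 12.0 and 56.8 in knock-out, and fell by 3.08 ± 0.42 on the log2 scale (adjusted p = 0.00616). Its knock-out mean lies under the level required for testing, so it was tested only through its wild type level, and the size of the change depends on the constant added before the logarithm. The other H2B probe sets on MG-U74A, those of H2bc3, H2bc18, H2bc21 and H2bc22, were not tested. Of the 3 for H2bc22, the probe set 162169_r_at read below 0 on every array and 161394_f_at read 14.8 and 9.8 in wild type and -1.3 and -1.6 in knock-out. A value below 0 can arise where mismatched control probes are brighter than the matched ones. On MG-U74B the probe set of H2bu1-ps and H2bu2 read 227.5 and 218.5 in wild type and 344.5 and 214.6 in knock-out, groups that overlap (log2 change 0.26 ± 0.31, adjusted p = 0.578).

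Among H2A genes, the probe set shared by H2ac18, H2ac19 and the pseudogene H2af-ps2 (93067_f_at) read 1490.4 and 1496.1 in wild type and 462.4 and 440.1 in knock-out. That is 3.31-fold lower (log2 change -1.67 ± 0.05, adjusted p = 1.85e-04), with no overlap. The array cannot tell which of these genes was read. H2ac18 and H2ac19 are neighbours in RefSeq's gene order, and their promoter windows of 300 bases share an identical run of 219. H3c14 is the next protein-coding gene after H2ac18, and its probe set (93068_r_at) is annotated with the same GenBank record as 93067_f_at. It fell as well, from 2138.8 and 2201.0 to 939.2 and 870.9, a 2.4-fold difference (log2 change -1.24 ± 0.05, adjusted p = 3.50e-04). The suffix r states that usual rules of probe selection were dropped for it. H2ac21 read 72.3 ± 2.4 in wild type and 47.5 ± 4.67 in knock-out (SD, n = 2), and its mean over the arrays was 59.9, just short of the level for testing. On MG-U74B H2aw, an H2A gene outside the large cluster, read 232.4 and 258.8 in wild type and 245.2 and 248.5 in knock-out (log2 change 0.01 ± 0.24, adjusted p = 0.984).

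H3 went the other way in the pair of probe sets with 12 symbols, and a pair with 8 symbols, too dim to be tested, lay lower in knock-out. The probe set 96416_f_at, annotated to 12 H3 genes from H3c1 to H3c15, read 719.2 and 706.8 in wild type and 2766.8 and 2484.7 in knock-out. Both knock-out arrays were above both wild type arrays, 3.68-fold in the means (log2 change 1.84 ± 0.06, adjusted p = 2.47e-04). A second probe set with the same 12 symbols, 93023_f_at, read 1340.7 and 1378.8 in wild type and 1770.9 and 2461.6 in knock-out, where the knock-out arrays differ from each other by more than knock-out replicate 1 does from wild type. It rose by 0.61 ± 0.17 (adjusted p = 0.0415). The call was lost when wild type replicate 1 (adjusted p = 0.142) or replicate 2 (0.128) was left out, with quantile normalization (0.0519), without the filter on low values (0.146) and without the variance trend (0.0718). Of the 11 alternatives run, 6 kept the call, and over the 11 the log2 change ran from 0.38 to 0.84. The symbols of both include H3c14, whose own probe set fell, so probe sets named for the same gene went in opposite directions. Of the pair with 8 H3 symbols each, 93022_i_at read 61.6 and 50.9 in wild type and 25.7 and 25.1 in knock-out, and 94756_at read -1.3 and 0.8 in wild type and -32.6 and -34.9 in knock-out. The 3 probe sets of H3c8 alone lay between -31.2 and 51.5 and were not tested.

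H4, the partner of H3, was read by 1 member on MG-U74B (165373_at, 13 symbols). It was 336.9 and 284.7 in wild type and 31.5 and 141.3 in knock-out. The groups do not overlap, as for 65% of all tested probe sets of that array type, but the log2 change of -1.79 ± 0.59 did not pass the threshold (adjusted p = 0.107, between 0.0551 and 0.343 over the alternatives). The knock-out replicates differ widely, and the log2 change ranged from -2.57 to -1.01 over the alternatives.

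**Figure D3:**
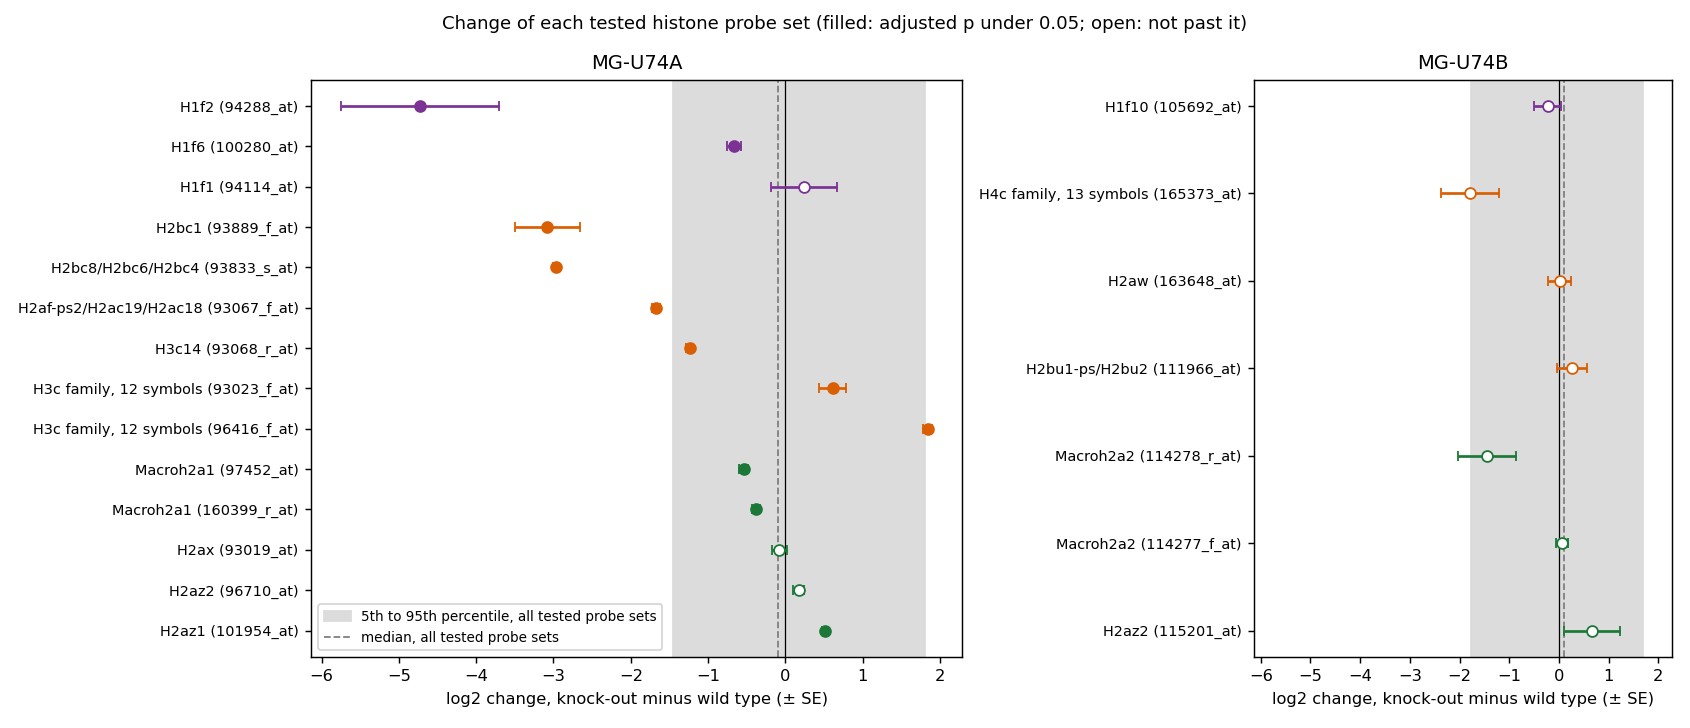
Log2 change, knock-out minus wild type, with its standard error for each tested histone probe set on each array type, filled where the adjusted p is under 0.05. The grey band spans the 5th to 95th percentile of all tested probe sets (-1.45 to 1.80 on MG-U74A and -1.77 to 1.70 on MG-U74B). On MG-U74A H1f2, both H2B probe sets and the H2ac18 probe set lie below it and the H3 probe set 96416_f_at above it, and on MG-U74B the H4 probe set (-1.79, not past the threshold) lies just below it.

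Linker histones gave 3 tested probe sets on MG-U74A. H1f2, a common somatic H1, read 1806.9 and 1797.9 in wild type and 165.4 and -23.4 in knock-out. Both knock-out arrays are far below wild type, yet they differ from each other, with a log2 change of -4.73 ± 1.02 (adjusted p = 0.0217). That change was -5.44 with a constant of 10 and -4.16 with 50, and it was -6.19 without knock-out replicate 1 and -3.26 without knock-out replicate 2. Leaving out wild type replicate 1 (adjusted p = 0.0843) or replicate 2 (0.0853), or testing with no filter on low values (0.1), lost the call. H1f6, known as the H1 of the testis, read 427.7 and 442.2 in wild type and 246.9 and 282.0 in knock-out, 1.64-fold lower (log2 change -0.67 ± 0.09, adjusted p = 0.00648). Without wild type replicate 2 its adjusted p was 0.0574. H1f1 read 111.0 and 122.9 in wild type and 85.8 and 226.8 in knock-out, so the knock-out arrays lie on either side of wild type (log2 change 0.24 ± 0.43, adjusted p = 0.675). Without knock-out replicate 1 its log2 change was 0.83 ± 0.12 (adjusted p = 0.0268), an error that assumes the lone knock-out array to vary like the wild type arrays, and without knock-out replicate 2 it was -0.36, so 1 array decides its direction. H1f3, H1f4, H1f5 and H1f10 read below 0 on all 4 arrays of MG-U74A. The oocyte linker H1f8 lay between -13.6 and 21.1. H1f10, a replacement linker, was read well by another probe set on MG-U74B, at 1399.5 and 823.4 in wild type and 985.6 and 845.7 in knock-out, with overlapping groups (log2 change -0.23 ± 0.27, adjusted p = 0.583). H1f7, of the spermatid, read 23.6 and 32.9 in wild type and -31.6 and -4.4 in knock-out on MG-U74B and was not tested.

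The 5 replacement probe sets tested on MG-U74A had log2 changes from -0.54 to 0.51. Those of the 6 replication-dependent core probe sets there ran from -3.08 (H2bc1, from -2.97 without it) to 1.84. On MG-U74B the 3 replacement probe sets ran from -1.45 to 0.67 and the 3 core probe sets from -1.79 to 0.26. Both ends of that replacement range come from probe sets with 1 genotype's mean under 62.5, and the remaining one was at 0.06. The classes were not compared by a test. H2az1, which encodes H2A.Z, found at promoters of active and poised genes, read 1693.4 and 1632.1 in wild type and 2335.4 and 2425.4 in knock-out. It rose 1.43-fold (log2 change 0.51 ± 0.04, adjusted p = 0.0015) and passed in all 11 alternatives. Its close relative H2az2 read 531.5 and 550.3 in wild type and 635.5 and 589.0 in knock-out, which did not pass (log2 change 0.17 ± 0.07, adjusted p = 0.0938). It passed with quantile normalization (adjusted p = 0.0464) and without knock-out replicate 2 (0.0426). The other probe set of H2az2, on MG-U74B, was at 64.0 and 46.9 in wild type and 63.3 and 157.5 in knock-out (log2 change 0.67 ± 0.56, adjusted p = 0.439). Its wild type mean of 55.4 lies under the level for testing, so it was tested only through its knock-out level.

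Macroh2a1, which encodes macroH2A, a large H2A variant of silent chromatin, was read by a pair of probe sets that fell together. The first (97452_at) read 857.6 and 866.0 in wild type and 610.9 and 556.8 in knock-out, 1.48-fold lower (log2 change -0.54 ± 0.06, adjusted p = 0.00416), and passed in all 11 alternatives. The second (160399_r_at) read 620.7 and 611.1 in wild type and 473.4 and 464.9 in knock-out, 1.31-fold lower (log2 change -0.38 ± 0.05, adjusted p = 0.00703). It was no longer called when wild type replicate 1 (adjusted p = 0.0744) or replicate 2 (0.0667) was left out. For its paralogue Macroh2a2 on MG-U74B the probe set 114277_f_at read 2250.5 and 1921.9 in wild type and 2312.5 and 2040.7 in knock-out (log2 change 0.06 ± 0.13, adjusted p = 0.761). Its dim partner 114278_r_at read 92.6 and 126.1 in wild type and 9.8 and 43.6 in knock-out (log2 change -1.45 ± 0.59, adjusted p = 0.162). The knock-out mean of 114278_r_at, 26.7, lies under the level for testing, so it was tested only through its wild type level. The size of its change depends on the constant, -1.86 with 10 and -1.08 with 50. H2ax, phosphorylated at DNA breaks, read 638.2 and 537.6 in wild type and 556.9 and 545.7 in knock-out (log2 change -0.08 ± 0.10, adjusted p = 0.511), a difference smaller than that between the wild type arrays. H2aj was below 0 on all 4 arrays. The testis variant H2al2a (42.0 and 88.8 in wild type, -62.5 and 16.5 in knock-out) and the single-symbol probe set of H3f3a (-49.0 to 19.7) were not tested.

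Another 4 probe sets name histones together with a symbol outside the rule and are not members. Of these, 3 are annotated to the replacement genes H3f3a and H3f3b and to pseudogenes. The first, 100380_at, fell from 2637.1 ± 12.3 to 2324.6 ± 99.4 (SD, n = 2), and the second, 100708_at, rose from 2780.4 ± 10.8 to 3277.2 ± 80.5, log2 changes of -0.18 ± 0.04 and 0.23 ± 0.03 (adjusted p = 0.0286 and 0.00744). On MG-U74B 115301_r_at read 1624.7 ± 187 and 1340.9 ± 46.6 and did not pass. The fourth, 94805_f_at, reads 13 H2A genes and Trim17, and rose from 2921.4 ± 12.9 to 3297.6 ± 4.32 (0.17 ± 0.03, adjusted p = 0.0115). Its direction is opposite to that of the H2ac18 probe set.

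Genes that make and handle histones were counted by the tested single-symbol probe set with the highest mean. Against them stand shares over all tested probe sets of 23.9% risen and 29% fallen on MG-U74A, and 8.59% and 8.87% on MG-U74B. Of 10 tested genes of histone mRNA synthesis and 3′ end processing on MG-U74A, 2 rose and 2 fell, with a median log2 change of -0.05. Slbp, which binds the stem-loop of replication-dependent histone mRNA, rose from 250 ± 16.3 to 379 ± 7.79 (log2 change 0.56 ± 0.09, adjusted p = 0.0085). Casp8ap2, needed for histone transcription, rose by 0.45 ± 0.12, while the factor Yy1 and the RNA processing gene Srrt fell by 0.69 ± 0.14 and 0.46 ± 0.04. On MG-U74B 0 of 8 passed. Of 26 histone chaperones and exchange factors on MG-U74A, 7 rose and 7 fell (median -0.02). Ruvbl2 (1.74 ± 0.27) and the nucleolar chaperone gene Ncl (1.00 ± 0.03) rose, as did Nap1l1 (0.73 ± 0.08), a chaperone of H2A and H2B, although another probe set of Nap1l1 went the opposite way. The brain-type chaperone gene Nap1l2 (-1.68 ± 0.30, with a knock-out mean of 25.4, under the level for testing), the histone importin gene Ipo4 (-0.89 ± 0.06) and Vps72 (-0.70 ± 0.13), which binds H2A.Z, fell. On MG-U74B 1 of 7 fell, Nap1l5 (-1.03 ± 0.12).

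Of 21 other chromosomal proteins on MG-U74A, 6 rose and 4 fell (median -0.04), where 23.9% and 29% of all tested probe sets did. Hmgb2, a DNA-bending protein of dividing cells, rose from 209 ± 10.1 to 730 ± 48.3 (1.69 ± 0.08), with Banf1 (1.44 ± 0.06) and Rcc1 (1.11 ± 0.28). Smc3 (-0.72 ± 0.10), Top1 (-0.71 ± 0.06) and Cenpa, the centromeric H3 (-0.52 ± 0.13), fell. On MG-U74B 2 of 5 rose and 1 fell, against 8.59% and 8.87% of all tested. Lbr (0.90 ± 0.14), which also rose on MG-U74A (0.81 ± 0.07), and Smc1a (0.53 ± 0.10) rose, and Hmgn3 fell (-0.93 ± 0.09).

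Genes of S phase rose on MG-U74A in 15 of 27 cases and fell in 2, with a median log2 change of 0.63. Over all tested probe sets there, 23.9% rose and 29% fell. Of the 15, 3 had a wild type mean under 62.5, so they were tested only through their knock-out level and the size of their change depends on the constant. Among these was the replicative helicase gene Mcm4, at 33.6 and 16.6 in wild type and 318.2 and 344.5 in knock-out. The helicase genes Mcm7 (2.06 ± 0.18) and Mcm5 (1.46 ± 0.16) rose too, while Pola2 (-0.56 ± 0.08) fell, as did Umps (-0.91 ± 0.25), whose knock-out mean was under 62.5. Of 17 genes of G2 and mitosis 9 rose and 1 fell (median 0.72). Of the 9, 4 had a wild type mean under 62.5. They include Cdk1, at -43.7 and -55.0 in wild type and 221.9 and 225.9 in knock-out, and Cks2, at 24.7 and 64.8 against 337.8 and 374.6. Mad2l1 rose by 1.58 ± 0.33, and Plk1 fell by 1.08 ± 0.25. On MG-U74B 1 of 3 and 1 of 4 rose, Pole (1.05 ± 0.14) and Tpx2 (1.06 ± 0.16), against 8.59% of all tested. Earlier results of these arrays had already shown the rise of cell cycle genes.

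**Figure D4:**
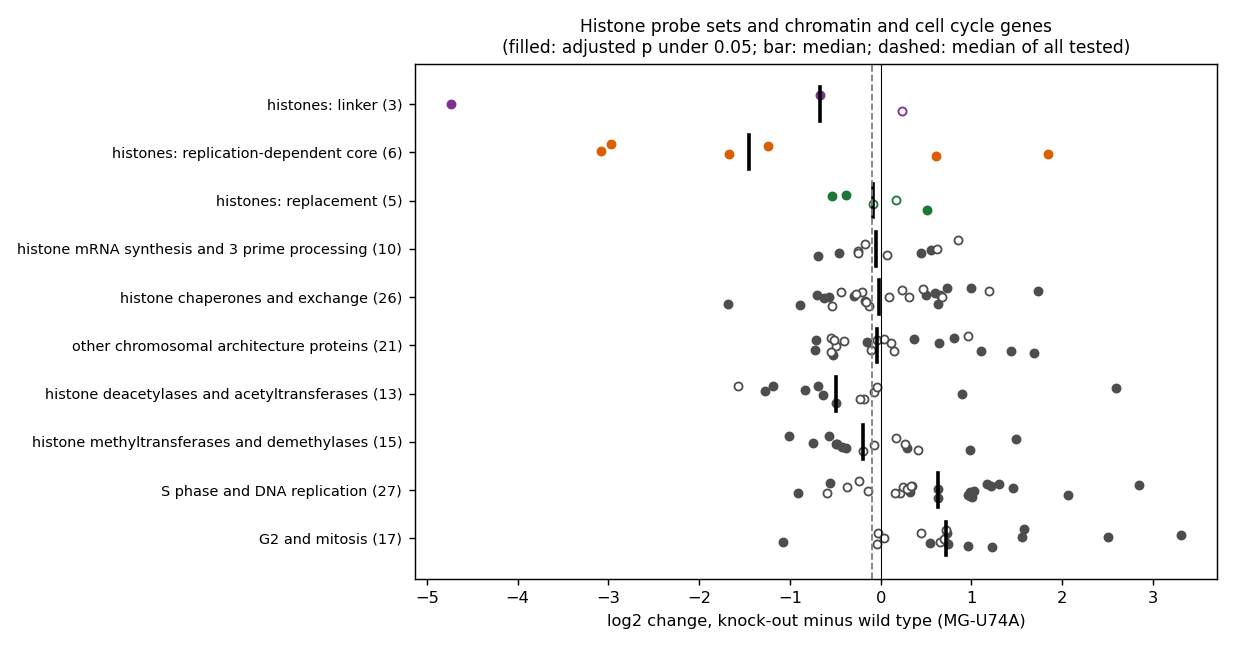
Log2 change on MG-U74A of each tested histone probe set by class and of each tested gene of 7 chromatin and cell cycle lists (number tested in brackets), filled where the adjusted p is under 0.05, with a bar at each median and a dashed line at the median of all tested probe sets (-0.09). Replication-dependent core probe sets spread on both sides of 0, from -3.08 to 1.84, and the S phase and mitosis lists have medians of 0.63 and 0.72.

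RNA quality and markers of cell types differed between the genotypes as well. The Gapdh 3′ to 5′ ratio, which is higher in less complete RNA, was 3.15 to 3.22 in wild type and 0.937 to 0.949 in knock-out on MG-U74A, and 3.07 to 3.12 and 0.9 to 0.914 on MG-U74B. The actin ratio differed less, at 1.45 to 1.47 in wild type and 1.12 to 1.16 in knock-out on MG-U74A and 1.45 to 1.48 and 1.13 to 1.18 on MG-U74B. As a background to the marker counts, 29% of all tested probe sets fell and 23.9% rose on MG-U74A, and 8.87% and 8.59% on MG-U74B. Marker intensities were summed over 1 probe set per gene, with values below 0 set to 0. Bright probe sets can dominate such a sum, so sums are read only between genotypes. Beta cell markers had summed intensities of 64916 to 65779 in wild type and 42707 to 47446 in knock-out on MG-U74A, where 7 of 7 tested fell. Acinar markers fell in 6 of 6 (37477 to 37728 against 4536 to 4970). B cell markers rose in 4 of 5 tested (3966 to 3990 against 15768 to 16936), with Cd79a at or below 0 in wild type. T cell markers rose in 2 of 2 tested of 7 on the array (35 to 97 against 657 to 760), with Cd3e and Cd5 at or below 0 in both genotypes. Macrophage and myeloid markers rose in 7 of 7 tested (2582 to 2793 against 7551 to 7811), and those of fibroblast and stellate cells rose in 6 of 8 and fell in 1 (5362 to 5424 against 16185 to 17284). Other endocrine markers fell in 3 of 3, endothelial markers rose in 4 of 6 and fell in 1, duct markers rose in 1 and fell in 1 of 4, and red cell markers rose in 2 of 2. On MG-U74B 4 of these lists had 1 tested marker each. That of B cells rose, and those of T cells (40 to 136 against 43 to 167), duct (141 to 173 against 301 to 310) and other endocrine cells (29266 to 31140 against 30630 to 34333) did not pass. The part of these markers in the histone values, and that of RNA quality, was not tested. In whole islets, fewer cells of a type and less RNA per cell cannot be told apart.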

How the data were processed

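RNA was labelled by the manufacturer's standard protocol, per the labels. Each probe set has 1 linear intensity, as deposited. Without its top and bottom 2% of values every deposited array has nearly the same mean (on average 250.2 for MG-U74A and 250.1 for MG-U74B), so the values were already scaled. Which software made them is not stated. Per array, 18.4% to 26.7% of values were below 0.

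Each array was scaled to the average trimmed mean of its type, negative values became 0, and 25.0 was added before log2, which understates the change of low genes. Probe sets with a mean under 62.5 and 66 control probe sets per type were not tested, which left 7516 and 7861. Tests used lmFit and eBayes with a trend (limma 3.58.1, R 4.3.3), two-sided, with Benjamini-Hochberg adjustment per array type at 0.05, and were tested on simulated data. An exact permutation test of 2 against 2 cannot go below p = 0.333. Symbols came from the array annotation, updated through GRCm38.p6. On MG-U74A 10855 probe sets had 1 symbol, 396 several and 1237 none, and on MG-U74B 10603, 178 and 1696. Every member may be named, and of each list up to 3 rises and 3 falls per array type that passed with no overlap between genotypes. Members, lists and rules were chosen with earlier results of these data known. Of 21 tested members, 3 had 1 genotype's mean under the filter. Alternatives changed the scaling, the constant, the floor, the filter, the variance model, a replicate block and the replicates used.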

Additional observations from a re-analysis of the deposited data

How the results depend on the processing

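On MG-U74A 8 falls and 3 rises stood in the main setting. Quantile normalization, constants of 10 or 50, a floor at the constant and the replicate block each gave counts of 8 and 3, although with quantile normalization the H3 probe set 93023_f_at was lost (0.56 ± 0.17, adjusted p = 0.0519) and H2az2 (96710_at) gained (0.23 ± 0.06, adjusted p = 0.0464). Leaving out 1 replicate, which assumes the lone array of that genotype to vary like the pair of the other, gave 5 to 8 falls and 2 to 4 rises, and without the filter or the variance trend there were 8 falls and 2 rises. Without the filter H1f2 and 93023_f_at were lost and H2bc22 (161394_f_at, -0.57 ± 0.08, adjusted p = 0.0338) gained. On MG-U74B the count stayed 0 in both directions, with the replicate block too and with each replicate left out (0 to 0), except that 1 fell without the filter, H1f7 (-1.09 ± 0.11, adjusted p = 0.047). Without either wild type replicate limma called 0 of 7861 probe sets there, so those fits carry no information on the members. The replicate numbers are not stated to mark a shared animal. Across probe sets the wild type and knock-out differences between replicates correlated at 0.0241 on MG-U74A and 0.0316 on MG-U74B. Whether equal numbers share a preparation or batch was not tested. Of 154 refits of single members on MG-U74A, 138 kept direction and side of the threshold. The direction of members that had not passed turned in these cases: H1f1 without knock-out replicate 2 (-0.36, to 0.83 without knock-out replicate 1), H2ax without wild type replicate 1 (0.03, to -0.20 without replicate 2), H1f10 without wild type replicate 1 (0.14, to -0.60 without replicate 2), Macroh2a2 (114277_f_at) without wild type replicate 2 or knock-out replicate 1 (-0.05 and -0.03, to 0.17), H2bu1-ps and H2bu2 without knock-out replicate 1 (-0.05, to 0.58), and H2aw with quantile normalization (-0.06), without wild type replicate 1 (-0.06) or without knock-out replicate 2 (-0.00, with up to 0.08). No signal over background is given per probe set, so levels near 0 have no stated floor.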

Other observations

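Enzymes that modify histones were described after the members. Of 13 tested histone deacetylases and acetyltransferases on MG-U74A, 6 fell and 2 rose, where 29% and 23.9% of all tested probe sets did. Their median log2 change was -0.49, against -0.09 over all tested probe sets. The coactivator gene Ncoa1 fell by 1.27 ± 0.14 there and by 1.02 ± 0.15 on MG-U74B (adjusted p = 0.00325 and 0.0162, limma). Hdac6, a deacetylase that acts mostly on tubulin, fell by 1.19 ± 0.06 and the acetyltransferase gene Kat2b by 0.83 ± 0.11. Hat1, which acetylates newly made H4, rose from 530 ± 2.26 to 1010.4 ± 41.1 (SD, n = 2; 0.90 ± 0.05). Hdac1 read 14.3 and -52.5 in wild type and 135.2 and 198.5 in knock-out. It passed (adjusted p = 0.00586, limma) but was tested only through its knock-out level, so the size of its change depends on the constant added. On MG-U74B 1 of 8 tested genes of this list fell, Ncoa1, and 0 rose (median -0.27), against 8.87% and 8.59% of all tested there.

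Of 15 tested histone methyltransferases and demethylases on MG-U74A, 7 fell and 3 rose (median -0.19), where 29% and 23.9% of all tested probe sets did. Ezh2, the H3 methyltransferase of the Polycomb complex, rose by 1.49 ± 0.19 from a wild type mean of 57.8, under the level for testing, its partner gene Eed by 0.29 ± 0.08 and the arginine methyltransferase gene Prmt1 by 0.98 ± 0.06. Jarid2, another Polycomb partner, fell by 1.01 ± 0.05, and Kdm6a, a demethylase that removes the Polycomb mark, fell by 0.74 ± 0.10, with Ehmt2 (-0.57 ± 0.04). The MG-U74B probe sets of Jarid2 (-0.18 ± 0.44, adjusted p = 0.798, limma) and Kdm6a (-0.55 ± 0.37, adjusted p = 0.349) did not pass. On MG-U74B 1 of 16 rose and 2 fell, against 8.59% and 8.87% of all tested there. The demethylase genes Kdm6b (-1.88 ± 0.36) and Kdm2b (-1.85 ± 0.20) fell, and Kdm2a rose by 0.76 ± 0.12. The lists were not compared with other genes by a test.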
